A study of Mus musculus with 8 samples.

Results

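The genes described here are the cyclins and cyclin-dependent kinases that drive cells through G1, together with an inhibitor and the retinoblastoma gene. They were taken by name as *Ccnd1*, *Ccnd2*, *Ccnd3*, *Ccne1*, *Ccne2*, *Cdk2*, *Cdk4*, *Cdk6*, *Cdkn1b* and *Rb1*, which are 10 of the 39089 genes in the tables.

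In G1, growth signals raise the D cyclins, which bind CDK4 and CDK6 and begin to phosphorylate RB. Phosphorylated RB releases E2F factors, which switch on the E cyclins and the genes of DNA replication, and cyclin E with CDK2 then completes the phosphorylation of RB. The p27 protein, encoded by *Cdkn1b*, binds and restrains these complexes, and D cyclin genes are known targets of growth factor, MYC and NF-κB signalling. Much of this control, that of p27 above all, acts on protein and is not seen in RNA.

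RNA-seq was performed on tumor cells sorted as EpCAM+ and CD45- from subcutaneous Myc-CaP tumors. Myc-CaP is a mouse prostate cancer line that carries a MYC transgene. The line had been given an empty vector (WT) or a CRISPR guide that targets *Arid1a*, the gene of a subunit of the SWI/SNF chromatin remodeler (*Arid1a* KO), and was grown in male FVB mice that were 6 weeks old. From day 16 after inoculation, mice received JSH-23, a small molecule that blocks entry of the NF-κB subunit p65 into the nucleus, or the corn oil vehicle by daily gavage for 2 weeks. The 4 groups of 2 samples were WT with vehicle, *Arid1a* KO with vehicle, WT with JSH-23 and *Arid1a* KO with JSH-23. All groups thus share the MYC-driven line and the male FVB host, and whether the edited line is 1 clone was not given in the sources used here. Nothing in the labels says whether the 2 samples of a group came from separate tumors, so p-values measure only the spread between these samples, which may be technical.

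Between 16401581 and 21972231 counts were assigned to genes per sample. Across tested genes the common biological coefficient of variation, the spread between samples of a group beyond counting error, was 1.61%. With so small a spread, differences of under 10% could pass the test, and the size of each difference is therefore given beside its p-value. Values are counts scaled to the size of each library by TMM (CPM) unless TPM is named. TPM divides each count by the gene's length and is scaled to the same sum in each sample, without TMM. The length of a gene is the same in every sample, so a difference between samples departs between CPM and TPM through this scaling only. A gene is said to have changed where its adjusted p in edgeR was under 0.05, over 13921 tested genes, and a stricter call also required a 1.5-fold difference.

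*Arid1a* was checked first. Its level was 156 and 161 CPM in the WT vehicle samples, 103 and 106 in the *Arid1a* KO vehicle samples, 144 and 155 in the WT JSH-23 samples, and 93.8 and 95.9 in the *Arid1a* KO JSH-23 samples. The edited samples lay below the WT samples without overlap, with a change of -34.2% with vehicle (adjusted p = 1.39e-23) and -36.6% with JSH-23 (adjusted p = 5.12e-25). A gene-level count does not show whether the remaining transcripts are intact.

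The sort was checked against marker genes. *Epcam*, the gene of the surface protein used for sorting, had 0, 1, 0 and 4 counts in the vehicle samples and 0, 0, 0 and 1 in the JSH-23 samples, so the labelled EpCAM+ state is not seen in the RNA, and *Cdh1* had at most 19 counts. Of the other epithelial genes listed, *Krt18* had 4 to 18 counts and *Cldn7* 0 to 5. *Cldn4* had 111 to 225, *Krt19* 207 to 2106, *Krt8* 540 to 2308 and the claudin gene *Cldn3* 4167 to 7023. *Ptprc*, which encodes CD45, had 0 to 10 counts, the endothelial gene *Pecam1* 5 to 12 and the fibroblast collagen gene *Col1a1* 27 to 61. The most abundant markers of their lists were higher, with *Cd68*, a leukocyte marker, at 81 to 378 counts and *Pdgfra*, a fibroblast marker, at 704 to 1265. In such bulk samples, fewer cells that express a gene and less RNA per cell cannot be told apart.

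The D cyclins bind CDK4 and CDK6, and *Ccnd1* (chr7:144929931-144939831, minus strand, mm10) was the most abundant of them with vehicle. *Ccnd1* stood at 245 and 243 CPM in the WT vehicle samples, 287 and 278 in the *Arid1a* KO vehicle samples, 120.2 and 112 in the WT JSH-23 samples, and 138 and 134 in the *Arid1a* KO JSH-23 samples. All 4 samples with JSH-23 lay far below all 4 with vehicle, and within each treatment the *Arid1a* KO samples lay above WT. JSH-23 lowered *Ccnd1* 2.10-fold in WT (log2 fold change -1.07 ± 0.032 SE, adjusted p = 1.18e-40) and 2.07-fold in *Arid1a* KO (-1.05 ± 0.029, adjusted p = 7.02e-43). The genotype difference was small, 15.8% with vehicle (adjusted p = 8.27e-10) and 17.2% with JSH-23 (adjusted p = 4.46e-08). Per length the JSH-23 samples of the genotypes overlapped, at 78.4 and 73.0 TPM in WT and 79.3 and 76.4 in *Arid1a* KO, and the call was lost in limma on log2(TPM + 1) (0.041, adjusted p = 0.403).

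*Ccnd3* (chr17:47505051-47599689, plus strand) varied little in CPM. It stood at 83.7 and 77.2 CPM in the WT vehicle samples, 85.3 and 86.5 in the *Arid1a* KO vehicle samples, 79.5 and 82.1 in the WT JSH-23 samples, and 90.0 and 88.2 in the *Arid1a* KO JSH-23 samples. The JSH-23 and vehicle samples of WT overlapped, with a log2 difference of 0.01 and an approximate 95% interval of -0.08 to 0.09. In *Arid1a* KO the JSH-23 samples lay above the vehicle samples by 0.05 (interval -0.03 to 0.13, adjusted p = 0.282), whereas limma on log2(TPM + 1) called a decrease of -0.18 (adjusted p = 0.00495). The median of all tested genes in that limma comparison was -0.20. With vehicle, the *Arid1a* KO samples lay above WT by 0.10 (interval 0.01 to 0.18, adjusted p = 0.0642). That difference passed in edgeR with library size only (0.12, adjusted p = 0.0163) and with at least 10 counts in every sample (0.11, adjusted p = 0.0312). Under JSH-23, *Arid1a* KO exceeded WT by 10.3% (adjusted p = 5.38e-03). This call was lost in DESeq2 (adjusted p = 0.0600) and with library size only (log2 difference 0.064, adjusted p = 0.231), and the difference turned to -0.0492 in limma on log2(TPM + 1).

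*Ccnd2* (chr6:127125162-127152188, minus strand) had few counts and did not pass the filter on low counts, so it was not tested. It had 4 and 6 counts in the WT vehicle samples, 6 and 4 in the *Arid1a* KO vehicle samples, 8 and 5 in the WT JSH-23 samples, and 3 and 2 in the *Arid1a* KO JSH-23 samples. A count of 0 would still allow up to 0.144 to 0.182 CPM at these depths, counting error only (3 counts per library), and *Ccnd2* stood at 0.0959 to 0.446 CPM. Nearly all D cyclin transcripts were thus those of *Ccnd1* and *Ccnd3*.

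Per length, the D cyclin pool changed its makeup. *Ccnd1* supplied 66.9 ± 1.12% of D cyclin TPM in WT with vehicle (SD, n = 2) and 68.7 ± 0.65% in *Arid1a* KO with vehicle. With JSH-23 its share was 48.9 ± 1.77% in WT and 50.5 ± 0.14% in *Arid1a* KO. The ratio of *Ccnd1* to *Ccnd3* thus moved from 2.02 ± 0.10 to 0.960 ± 0.068 in WT and from 2.19 ± 0.068 to 1.02 ± 0.0058 in *Arid1a* KO, with no overlap between treatments. The ratios are given as a description, with no test.

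**Figure D1:**
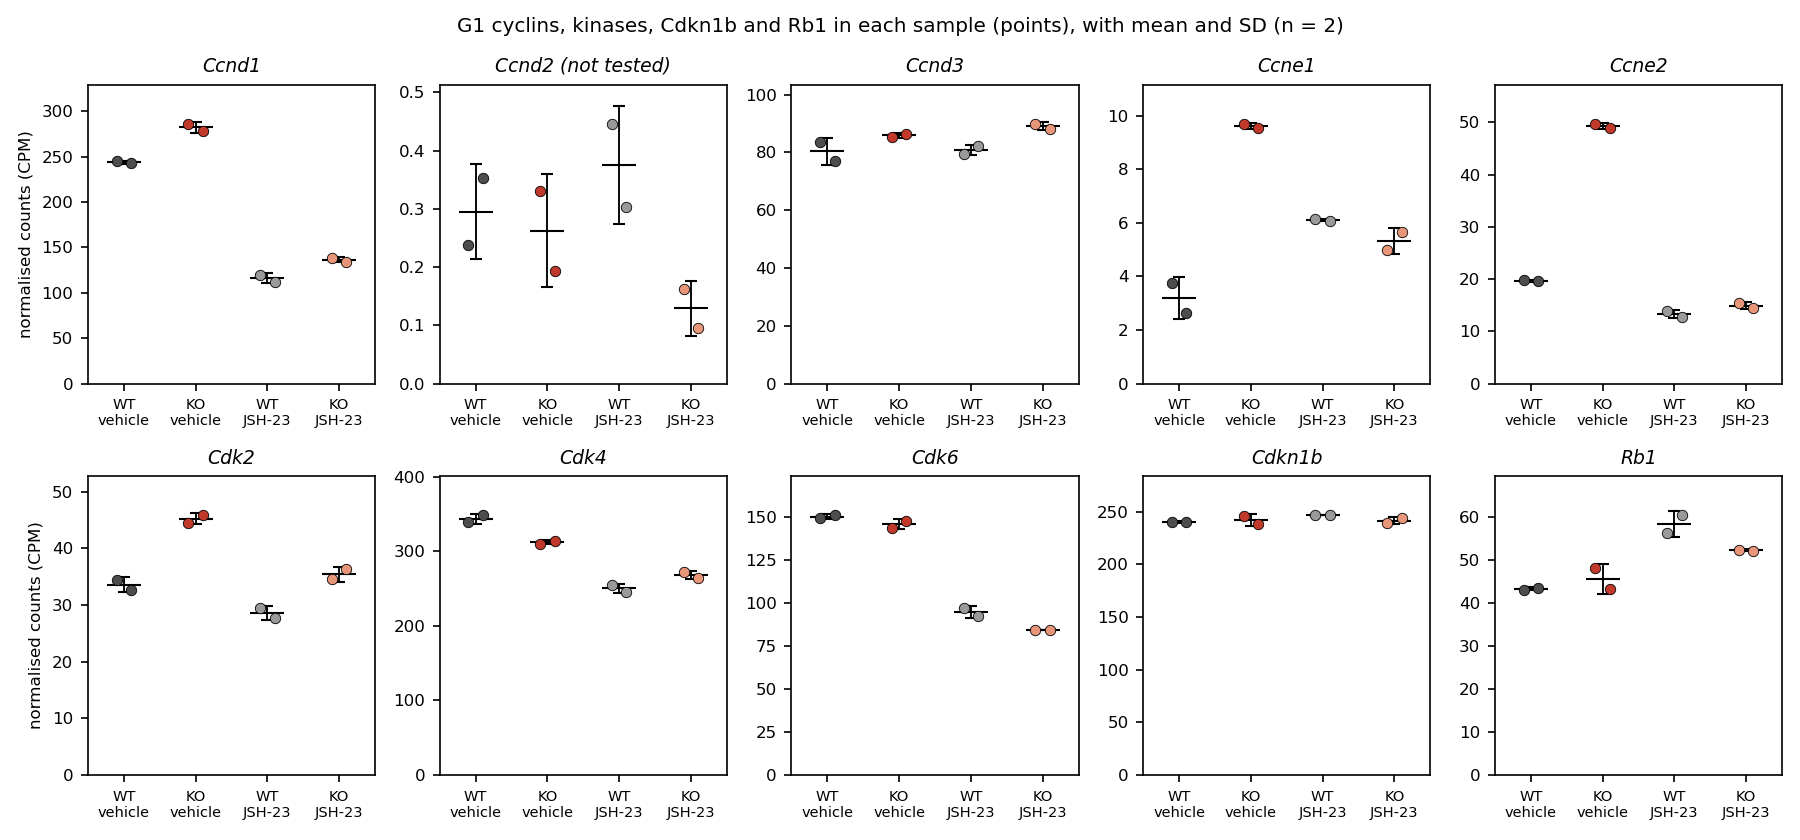
Normalised counts (CPM, y axis, starting at 0, a different scale in each panel) of the 10 genes in the 8 samples. Points are samples, horizontal lines the group mean and bars the SD (n = 2). *Ccnd1* and *Cdk6* sit lower in all 4 JSH-23 samples, and *Ccne1* and *Ccne2* are highest in the *Arid1a* KO vehicle samples. *Cdkn1b* stays between 238 and 247 CPM, and *Ccnd2*, at 2 to 8 counts, was not tested.

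The kinases that pair with the D cyclins were both lower with JSH-23. *Cdk4* (chr10:127063535-127067288, plus strand) stood at 339 and 349 CPM in the WT vehicle samples, 310.1 and 314 in the *Arid1a* KO vehicle samples, 255 and 246 in the WT JSH-23 samples, and 272 and 264 in the *Arid1a* KO JSH-23 samples. The genotype order turned with treatment, since *Arid1a* KO lay below WT with vehicle and above it with JSH-23. JSH-23 lowered *Cdk4* by 1.37-fold in WT (log2 fold change -0.46 ± 0.025 SE, adjusted p = 1.53e-25) and by 1.16-fold in *Arid1a* KO (-0.22 ± 0.024, adjusted p = 3.03e-12). *Arid1a* KO differed from WT by -9.24% with vehicle (adjusted p = 1.17e-06) and by 7.11% with JSH-23 (adjusted p = 8.99e-04). The turn depends on the scaling, since limma on log2(TPM + 1) gave a log2 difference of -0.09 with JSH-23, and library size only gave 0.022 (adjusted p = 0.507).

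*Cdk6* (chr5:3341004-3531008, plus strand) encodes the other D cyclin kinase. It stood at 149.5 and 151 CPM in the WT vehicle samples, 144 and 148 in the *Arid1a* KO vehicle samples, 97.3 and 92.3 in the WT JSH-23 samples, and 84.4 and 84.6 in the *Arid1a* KO JSH-23 samples. The treated and vehicle samples did not overlap in either genotype. JSH-23 lowered *Cdk6* by 1.59-fold in WT (-0.66 ± 0.037, adjusted p = 3.03e-25) and by 1.73-fold in *Arid1a* KO (-0.79 ± 0.037, adjusted p = 3.41e-30). With vehicle the genotypes differed by -0.04 on the log2 scale, with an interval of -0.11 to 0.02 (adjusted p = 0.297), and with JSH-23 *Arid1a* KO was 1.12-fold lower (adjusted p = 3.43e-04).

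Per length, *Cdk4* far exceeded *Cdk6*. Mean TPM was 612 for *Cdk4* and 31.4 for *Cdk6* in WT with vehicle. The *Cdk4* to *Cdk6* ratio was 19.5 ± 0.22 and 18.2 ± 0.20 in WT and *Arid1a* KO with vehicle, and 22.5 ± 0.30 and 27.1 ± 0.60 in WT and *Arid1a* KO with JSH-23 (SD, n = 2). The 4 groups did not overlap in this ratio.

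The 250 bases before the *Cdk4* start are shown because they hold 4 copies of the canonical E-box, the 6-base element CACGTG that MYC and related factors bind. Promoter sequences come from RefSeq, build GRCm38.p6, and were matched for 6 of the 10 genes in the table used here, which is not complete, and the window of *Cdk6* there begins from a start 2889 bases away from the deposited one. The window of *Cdk4* is chr10:127063285-127063534 on the plus strand, written in lower case with E-boxes in capitals.
Cdk4: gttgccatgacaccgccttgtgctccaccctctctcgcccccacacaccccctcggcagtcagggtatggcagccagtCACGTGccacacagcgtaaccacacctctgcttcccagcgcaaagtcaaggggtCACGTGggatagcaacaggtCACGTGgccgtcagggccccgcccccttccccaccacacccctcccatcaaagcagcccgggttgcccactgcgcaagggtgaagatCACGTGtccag
The E-boxes begin at positions -172, -118, -98 and -11 from the start. The *Cdk6* window also holds 1, at -220 to -215 from the start used there, and those of *Cdk2*, *Ccne1*, *Cdkn1b* and *Ccnd3* hold 0. The E-box reads the same on both strands, and 6.02% of the 32851 promoters searched over the same length hold at least 1. A match describes letters in this window and is not evidence that a factor was bound in these cells.

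The E cyclins, which activate CDK2, showed the widest ranges of all tested members. *Ccne1* (chr7:38097984-38107490, minus strand) stood at 3.74 and 2.64 CPM in the WT vehicle samples, 9.71 and 9.53 in the *Arid1a* KO vehicle samples, 6.14 and 6.08 in the WT JSH-23 samples, and 4.97 and 5.66 in the *Arid1a* KO JSH-23 samples. The *Arid1a* KO vehicle samples were highest and the WT vehicle samples lowest, with both JSH-23 groups between them. These levels rest on 45 to 197 counts per sample, the fewest of any tested member. With vehicle, *Ccne1* was 3.01-fold higher in *Arid1a* KO (log2 fold change 1.59 ± 0.17 SE, adjusted p = 4.75e-13). JSH-23 raised it 1.91-fold in WT (0.94 ± 0.18, adjusted p = 1.20e-05) and lowered it 1.80-fold in *Arid1a* KO (-0.85 ± 0.14, adjusted p = 4.20e-07). With JSH-23 the genotypes differed by -0.20, with an interval of -0.51 to 0.12 (adjusted p = 0.331).

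*Ccne2* (chr4:11190433-11204779, plus strand) encodes the second E cyclin. It stood at 19.8 and 19.6 CPM in the WT vehicle samples, 49.8 and 49.0 in the *Arid1a* KO vehicle samples, 13.9 and 12.8 in the WT JSH-23 samples, and 15.4 and 14.4 in the *Arid1a* KO JSH-23 samples. The *Arid1a* KO vehicle samples stood far above all others, and the JSH-23 samples of both genotypes lay below WT with vehicle. With vehicle, *Ccne2* was 2.51-fold higher in *Arid1a* KO (1.33 ± 0.076, adjusted p = 7.46e-25). JSH-23 lowered it 3.32-fold in *Arid1a* KO (-1.73 ± 0.077, adjusted p = 4.00e-31) and 1.48-fold in WT (-0.56 ± 0.097, adjusted p = 9.14e-07). With JSH-23 the genotype difference was 0.16, with an interval of -0.04 to 0.35 (adjusted p = 0.203).

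Per length, *Ccne2* was the more abundant E cyclin in every sample. Summed E cyclin TPM was 19.1 ± 1.10 in WT and 50.3 ± 0.58 in *Arid1a* KO with vehicle, and 17.5 ± 0.68 and 15.5 ± 0.019 in the same genotypes with JSH-23 (SD, n = 2). *Ccne1* supplied 21.4 ± 3.95% and 24.8 ± 0.031% of it with vehicle, and 43.7 ± 1.31% and 37.7 ± 3.28% with JSH-23. Summed D cyclin TPM was 12.8 ± 0.46 times that of the E cyclins in WT with vehicle and 5.51 ± 0.0011 times in *Arid1a* KO with vehicle, against 8.83 ± 0.22 and 9.94 ± 0.22 times with JSH-23.

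**Figure D2:**
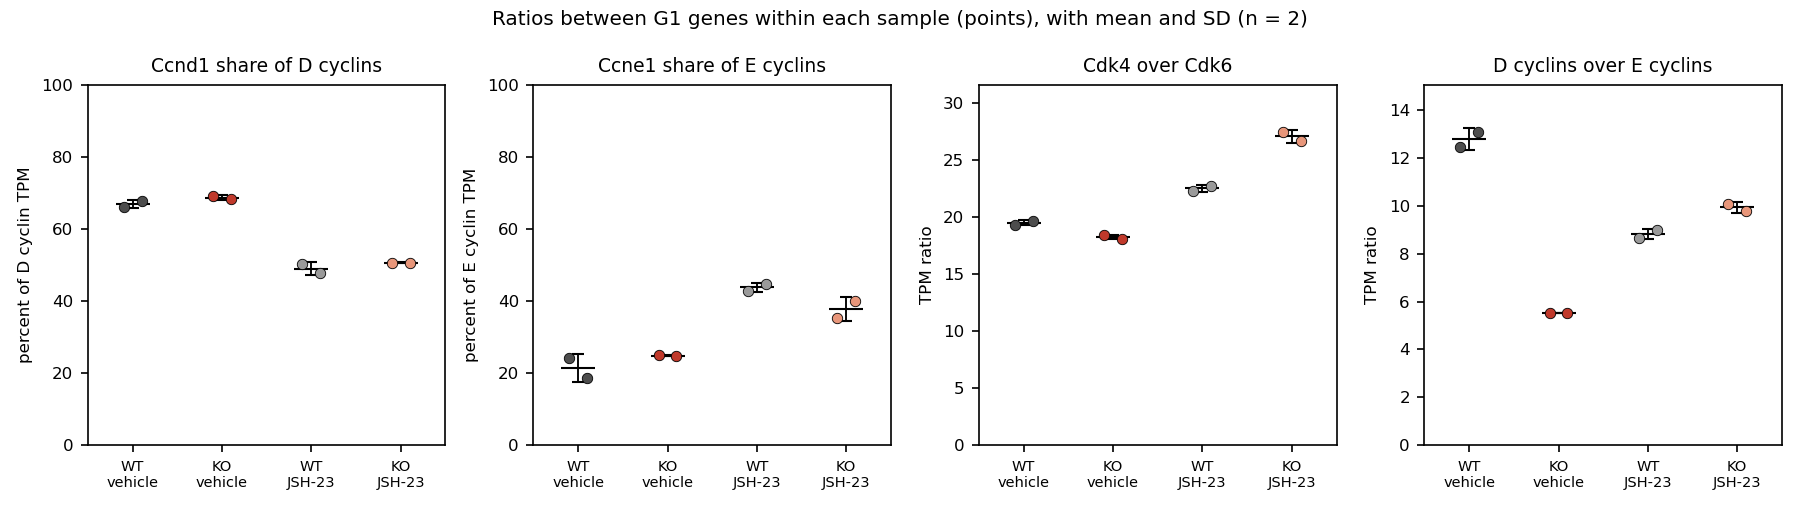
Shares (percent of TPM) and TPM ratios between G1 genes within each sample, on axes that start at 0. Points are samples, lines the group mean and bars the SD (n = 2). *Ccnd1* supplies 66.1 to 69.1% of D cyclin TPM with vehicle and 47.6 to 50.6% with JSH-23, and the D to E cyclin ratio is lowest, at 5.51, in both *Arid1a* KO vehicle samples.

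*Cdk2* (chr10:128697938-128705051, minus strand), which encodes the kinase partner of the E cyclins, stood at 34.5 and 32.6 CPM in the WT vehicle samples, 44.5 and 45.9 in the *Arid1a* KO vehicle samples, 29.4 and 27.6 in the WT JSH-23 samples, and 34.5 and 36.3 in the *Arid1a* KO JSH-23 samples. *Arid1a* KO lay above WT with either treatment, and the treated KO samples came close to the untreated WT samples. The genotype difference was 1.35-fold with vehicle (0.43 ± 0.066, adjusted p = 6.33e-08) and 1.24-fold with JSH-23 (0.31 ± 0.070, adjusted p = 1.42e-04). JSH-23 lowered *Cdk2* by 1.28-fold in *Arid1a* KO (adjusted p = 1.62e-06) and by 1.17-fold in WT (adjusted p = 5.11e-03). The WT call was lost without WT vehicle replicate 1 (adjusted p = 0.0781) or WT JSH-23 replicate 2 (adjusted p = 0.0810).

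The promoters of *Cdk2* and *Ccne1* are shown as those of a kinase and its cyclin partner that were both higher in *Arid1a* KO with vehicle. The windows are the 250 bases before the start, chr10:128705052-128705301 for *Cdk2* and chr7:38107491-38107740 for *Ccne1*, both on the minus strand, with matches in capitals. They were searched on both strands for 4 E2F octamers (TTTCCCGC, TTTGCCGC, TTTCGCGC and TTTGGCGC), the E-box CACGTG and the κB motif.
Cdk2: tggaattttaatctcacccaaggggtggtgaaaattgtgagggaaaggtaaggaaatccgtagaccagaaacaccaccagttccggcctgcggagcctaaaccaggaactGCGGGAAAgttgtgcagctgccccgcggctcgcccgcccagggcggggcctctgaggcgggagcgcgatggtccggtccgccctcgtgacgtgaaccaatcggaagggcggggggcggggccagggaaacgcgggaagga
Ccne1: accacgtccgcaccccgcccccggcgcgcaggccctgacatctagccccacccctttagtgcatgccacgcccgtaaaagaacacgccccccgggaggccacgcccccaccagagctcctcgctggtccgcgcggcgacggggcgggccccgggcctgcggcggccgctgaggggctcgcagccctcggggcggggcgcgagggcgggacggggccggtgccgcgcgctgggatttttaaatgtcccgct
*Cdk2* holds 1 E2F octamer, at -140 to -133 and read on the opposite strand. An octamer of this set is found in 1.86% of the 32851 promoters, and the κB motif in 3.90%. The *Ccne1* window holds none of the letters searched and is 76.0% G and C, against 63.2% for *Cdk2*. Neither the κB motif nor an E2F octamer was found in the other listed windows, those of *Cdk4*, *Cdk6*, *Cdkn1b* and *Ccnd3*, which says only that these letters are not there.

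*Cdkn1b* (chr6:134920401-134925525, plus strand), which encodes the inhibitor p27, was the steadiest member in CPM. It stood at 239.9 and 241 CPM in the WT vehicle samples, 246 and 238 in the *Arid1a* KO vehicle samples, 247 and 247 in the WT JSH-23 samples, and 239 and 244 in the *Arid1a* KO JSH-23 samples. Its 4 group means spanned 0.04 on the log2 scale. The 4 pairwise differences lay between -0.03 and 0.04, with adjusted p-values from 0.228 to 0.916 and intervals that reached at most 0.09 from 0. On the TPM scale it was lower in the *Arid1a* KO JSH-23 samples, at 215.8 ± 1.65 TPM against 251.8 ± 0.24 in WT with JSH-23 and 255 ± 5.64 in *Arid1a* KO with vehicle (SD, n = 2), and limma on log2(TPM + 1) called both differences, at -0.22 and -0.24. EdgeR with library size only called them too, at -0.11 (adjusted p = 2.54e-04) and -0.12 (4.46e-05). The median of all tested genes was itself -0.16 and -0.20 in the 2 limma comparisons. With library size only it was -0.13 for JSH-23 in *Arid1a* KO. These calls are therefore not read as particular to *Cdkn1b*. Against *Cdk2*, its TPM ratio was 7.92 ± 0.33 in WT and 5.92 ± 0.26 in *Arid1a* KO with vehicle, and 9.57 ± 0.43 and 7.53 ± 0.17 with JSH-23.

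*Rb1* (chr14:73192858-73325951, minus strand), the gene of the E2F-restraining protein RB, stood at 43.1 and 43.5 CPM in the WT vehicle samples, 48.1 and 43.2 in the *Arid1a* KO vehicle samples, 56.3 and 60.5 in the WT JSH-23 samples, and 52.4 and 52.2 in the *Arid1a* KO JSH-23 samples. The genotypes overlapped with vehicle (log2 difference 0.07, interval -0.05 to 0.19, adjusted p = 0.334). JSH-23 raised *Rb1* by 34.6% in WT (0.43 ± 0.060, adjusted p = 5.01e-09) and by 14.8% in *Arid1a* KO (adjusted p = 1.80e-03). With JSH-23 *Arid1a* KO differed from WT by -10.3% (adjusted p = 0.0173). The call in *Arid1a* KO was lost without *Arid1a* KO vehicle replicate 2 (adjusted p = 0.116), and that between genotypes without WT JSH-23 replicate 2 (0.225) or either *Arid1a* KO JSH-23 sample (0.0684 and 0.105). The genotype call was also lost in DESeq2 (adjusted p = 0.118). The response in *Arid1a* KO was 0.086 on the log2 scale with library size only (adjusted p = 0.183) and turned to -0.0378 in limma on log2(TPM + 1).

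**Figure D3:**
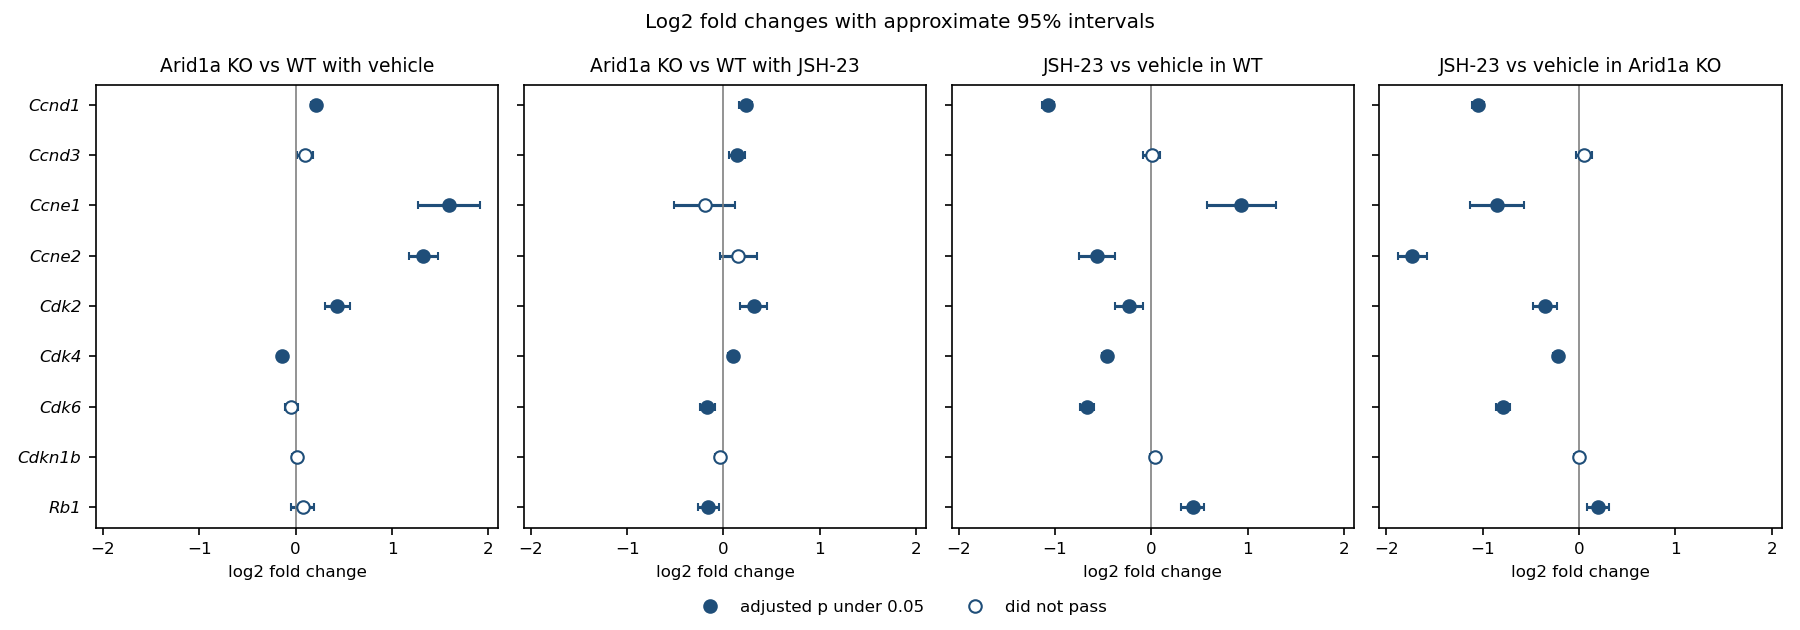
Log2 fold changes (x axis) of the 9 tested genes in the 4 pairwise comparisons, with approximate 95% intervals. Filled points passed an adjusted p under 0.05 and open points did not. *Ccne1* points right in WT with JSH-23 (0.94) and left in *Arid1a* KO (-0.85), while *Ccnd1* lies at -1.07 and -1.05.

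Counted together, 5 of the 9 tested members changed between *Arid1a* KO and WT with vehicle, against 50.5% of all genes tested. Those higher were *Ccnd1*, *Ccne1*, *Ccne2* and *Cdk2*, where 25.0% of all genes were higher, and *Cdk4* was lower, where 25.5% were. The stricter 1.5-fold call held for *Ccne1* and *Ccne2*, against 12.6% of all genes. The median log2 difference of the members was 0.10, beside 0.00325 for all tested genes. *Cd68*, the most abundant of 10 leukocyte markers listed, was higher in the *Arid1a* KO vehicle samples too, at 301 and 378 counts against 110 and 127, whereas the other 4 tested, *Adgre1*, *Itgam*, *Csf1r* and *Laptm5*, were lower there, at 0 to 6 counts against 10 to 24 in WT. DESeq2 called 1 of the list higher and 1 lower. Of 5 fibroblast markers tested 1 was lower in *Arid1a* KO, against 0 in DESeq2. Of 2 endothelial markers tested 1 was higher, in edgeR and in DESeq2. The part of these marker lists in the differences was not tested.

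With JSH-23, 6 of the 9 differed between genotypes, against 47.0% of all genes. *Ccnd1*, *Ccnd3*, *Cdk2* and *Cdk4* were higher in *Arid1a* KO (23.2% of all genes) and *Cdk6* and *Rb1* lower (23.8%). None of the 9 reached 1.5-fold in edgeR or in DESeq2, as 8.71% of all genes did in edgeR. DESeq2 called 4 of the 9, and with a fixed biological coefficient of variation of 0.1 in edgeR the count was 0. In limma on log2(TPM + 1), *Ccnd1* (0.041), *Ccnd3* (-0.0492) and *Cdk2* (0.12) did not pass and *Cdk4* turned. The median was 0.10, beside -0.01 for all genes. Of 5 fibroblast markers tested 4 were lower in *Arid1a* KO with JSH-23 and 0 higher, where DESeq2 called 2 lower. Of 5 leukocyte markers 2 were lower and 1 higher, where DESeq2 called 0 lower and 1 higher. The part of either list in these differences was not tested.

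JSH-23 changed 7 of the 9 members in *Arid1a* KO, against 67.8% of all genes, and 7 in WT, against 55.8%. In *Arid1a* KO, *Ccnd1*, *Ccne1*, *Ccne2*, *Cdk2*, *Cdk4* and *Cdk6* were lower (34.4% of all genes) and *Rb1* was higher (33.4%). In WT, *Ccnd1*, *Ccne2*, *Cdk2*, *Cdk4* and *Cdk6* were lower (27.2%), and *Ccne1* and *Rb1* were higher (28.6%). The 1.5-fold call held for *Ccnd1*, *Ccne1*, *Ccne2* and *Cdk6* in *Arid1a* KO, against 26.0% of all genes, and for *Ccnd1*, *Ccne1* and *Cdk6* in WT, against 15.8%. *Cd68* moved with these changes, from 301 and 378 counts to 165 and 153 in *Arid1a* KO and from 110 and 127 to 98 and 81 in WT, and of the 5 leukocyte markers tested 1 was lower with JSH-23 in *Arid1a* KO and 3 in WT, against 1 and 0 in DESeq2. The WT JSH-23 samples stood apart from each other in these genes, with 17 and 1 counts of *Adgre1*, 12 and 0 of *Itgam*, 15 and 1 of *Csf1r* and 9 and 0 of *Laptm5*, and the low values are those of replicate 2. Of 5 fibroblast markers tested 1 was lower with JSH-23 in *Arid1a* KO and 1 higher in WT, in edgeR and in DESeq2. *Pdgfra* went from 60.2 and 61.2 CPM to 38.0 and 38.4 in *Arid1a* KO, and from 56.5 and 57.9 to 54.1 and 53.2 in WT. Of 2 endothelial markers tested 1 was lower in *Arid1a* KO, against 0 in DESeq2, and 0 changed in WT. The part of these markers in the result was not tested. Member medians were -0.35 in *Arid1a* KO and -0.23 in WT, beside -0.02 and -0.00605 for all genes. Each JSH-23 comparison shares its vehicle samples with the genotype comparison made with vehicle, so the values of these comparisons are not independent of each other.

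The interaction asked whether JSH-23 acted differently in the 2 genotypes. It passed for 4 of the 9 members, against 38.4% of all genes, with *Cdk4* positive (20.5% of all genes) and *Ccne1*, *Ccne2* and *Rb1* negative (17.9%). *Ccne1* (-1.79 ± 0.23, adjusted p = 1.66e-09) and *Ccne2* (-1.17 ± 0.13, adjusted p = 3.68e-12) also passed the 1.5-fold call, as did 9.07% of all genes. For *Ccnd1* the difference in response was 0.02, with an interval of -0.07 to 0.10 (adjusted p = 0.788). It turned to -0.18 and passed in limma on log2(TPM + 1) (adjusted p = 0.0346). In edgeR with library size only it was -0.085 (adjusted p = 0.116). In limma on log2(TPM + 1) the *Cdk4* term was 0.043 and did not pass, and that of *Rb1* was lost in edgeR when any of 5 samples was left out. The term was -0.12 for *Cdk2*, with an interval of -0.31 to 0.07 (adjusted p = 0.352), and -0.12 for *Cdk6* (adjusted p = 0.0547). Both passed in limma on log2(TPM + 1), at -0.31 and -0.30 (adjusted p = 0.0111 and 0.00954). The *Cdk6* term also passed in edgeR with library size only (-0.23, adjusted p = 2.56e-04), with at least 10 counts in every sample (0.0320) and without WT JSH-23 replicate 2 (0.0259). For *Cdkn1b* the term was -0.04 (adjusted p = 0.408), and it passed in limma on log2(TPM + 1) (-0.24, adjusted p = 8.55e-04) and with library size only (-0.14, adjusted p = 8.35e-04). The median term of all tested genes was -0.00411 in the main fit, -0.17 in limma on log2(TPM + 1) and -0.11 with library size only. The terms of members under these 2 scalings thus include a shift shared by many genes.

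Other genes of the G1 network, a list of 28 that holds the other CDK inhibitors, RB and E2F family members, the CDK-activating kinase and regulators of these proteins, were tested in the same way. With vehicle, 14 were higher and 5 lower in *Arid1a* KO, beside 25.0% and 25.5% of all genes. With JSH-23, 13 were higher and 6 lower (23.2% and 23.8% of all genes), although limma on log2(TPM + 1) gave 6 higher and 11 lower and library size only 11 and 11. JSH-23 raised 8 and lowered 15 in *Arid1a* KO (33.4% and 34.4% of all genes), and raised 8 and lowered 11 in WT (28.6% and 27.2%). The interaction was positive for 6 and negative for 11 (20.5% and 17.9%). In limma on log2(TPM + 1) JSH-23 raised 4 and lowered 19 in *Arid1a* KO, and the interaction was positive for 1 and negative for 15. The shares of all genes called in the limma and library size fits are not given here. In limma the median of all tested genes was -0.16 between genotypes with JSH-23, -0.20 for JSH-23 in *Arid1a* KO and -0.17 for the interaction. These alternative counts are therefore not read as a result about the list. The list's pairwise medians in these 4 comparisons were 0.19, 0.14, -0.23 and -0.10. At least 1 pairwise difference of 1.5-fold was reached by 11 of the 28, beside 37.8% of all genes.

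Among the inhibitors, *Cdkn1a*, which encodes p21, stood at 88.3 and 88.4 CPM in the WT vehicle samples, 143 and 141 in the *Arid1a* KO vehicle samples, 60.4 and 64.0 in the WT JSH-23 samples, and 93.0 and 88.7 in the *Arid1a* KO JSH-23 samples. It was 1.61-fold higher in *Arid1a* KO with vehicle (adjusted p = 5.69e-25) and 1.56-fold lower with JSH-23 in *Arid1a* KO (adjusted p = 7.51e-25). *Cdkn2c*, which encodes the CDK4 and CDK6 inhibitor p18, was 1.55-fold higher with JSH-23 in *Arid1a* KO (adjusted p = 7.61e-19). *Cdkn1c*, the p57 gene, at 2.06 to 4.53 CPM, was 1.77-fold lower there (adjusted p = 8.40e-04).

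The E2F family split. *E2f2*, an activator, was 1.66-fold higher in *Arid1a* KO with vehicle (adjusted p = 2.91e-14), and the atypical repressors *E2f7* and *E2f8* were 1.69-fold and 1.73-fold higher (adjusted p = 8.76e-13 and 5.73e-14). With JSH-23, *E2f7* fell 2.41-fold and *E2f8* 2.92-fold in *Arid1a* KO (adjusted p = 3.07e-22 and 1.24e-26), and 1.72-fold and 1.45-fold in WT (adjusted p = 3.13e-10 and 1.27e-06). *E2f5*, a partner of the RB relatives, rose 1.88-fold with JSH-23 in *Arid1a* KO (adjusted p = 5.18e-12).

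*Myc* stood at 17.2 and 16.5 CPM in the WT vehicle samples, 55.3 and 54.6 in the *Arid1a* KO vehicle samples, 12.4 and 13.3 in the WT JSH-23 samples, and 22.2 and 24.4 in the *Arid1a* KO JSH-23 samples. It was 3.26-fold higher in *Arid1a* KO with vehicle (adjusted p = 9.44e-31) and 1.81-fold higher with JSH-23 (adjusted p = 1.17e-12), and whether reads of the line's MYC transgene were counted on it was not tested. *Skp2*, the receptor of the ubiquitin ligase that marks p27 for degradation, was 1.71-fold higher in *Arid1a* KO with vehicle (adjusted p = 2.64e-13) and fell 1.64-fold with JSH-23 in *Arid1a* KO (adjusted p = 5.74e-13). *Fbxw7*, which encodes the ligase receptor for cyclin E, fell 1.58-fold there (adjusted p = 2.45e-09). *Cdk7*, the gene of the kinase that activates CDKs, was lower with JSH-23 in both genotypes, 1.70-fold in WT and 1.77-fold in *Arid1a* KO (adjusted p = 7.69e-17 and 2.84e-18).

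**Figure D4:**
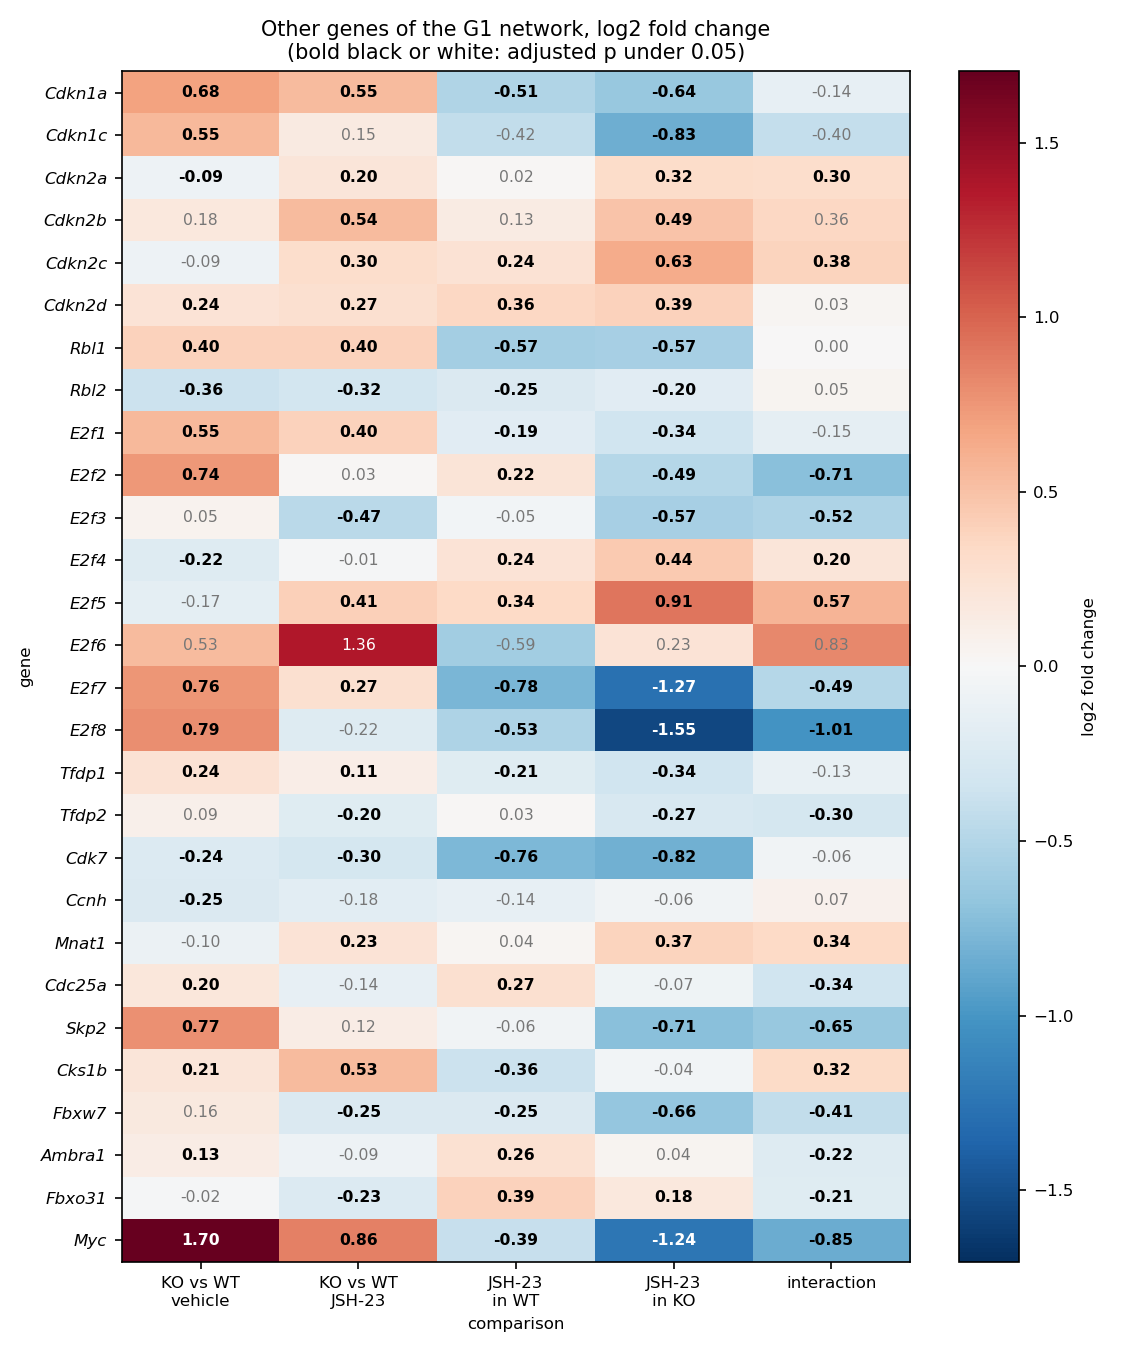
Log2 fold changes (colour and printed value) of 28 other genes of the G1 network (rows) in the 5 comparisons (columns). Bold values passed an adjusted p under 0.05. *Myc*, *E2f7*, *E2f8* and *Skp2* are higher in *Arid1a* KO with vehicle and lower with JSH-23 in *Arid1a* KO, and *E2f6*, whose 1.36 did not pass, rests on 4 to 15 counts per sample.

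Targets of E2F that act in S phase, such as the replication helicase and nucleotide synthesis genes, were followed as a further list. All 20 genes were tested, with 19 higher and 0 lower in *Arid1a* KO with vehicle, where the 1 other did not pass, and 20 higher with JSH-23, beside 25.0% and 23.2% of all genes higher. JSH-23 lowered 17 and raised 1 in *Arid1a* KO (34.4% and 33.4% of all genes) and lowered 20 in WT (27.2%). The interaction was positive for 10 and negative for 0 (20.5% and 17.9% of all genes), although limma on log2(TPM + 1) gave 4 and 5. Their summed level was 2123 and 2089 CPM in the WT vehicle samples, 2749 and 2769.9 in the *Arid1a* KO vehicle samples, 1248 and 1264 in the WT JSH-23 samples, and 1855 and 1884 in the *Arid1a* KO JSH-23 samples. The most abundant was *Rrm2*, which encodes a ribonucleotide reductase subunit, at 197 to 543 CPM. List medians were 0.43 and 0.60 for the genotype difference with vehicle and with JSH-23, and -0.56 and -0.70 for JSH-23 in *Arid1a* KO and WT. The *Arid1a* KO JSH-23 samples thus kept a higher summed level than the WT JSH-23 samples, while *Ccne1* and *Ccne2* showed no detectable genotype difference with JSH-23.

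*Ccne2* had the widest range of group means among members with a mean of at least 10 CPM, 1.89 on the log2 scale. The 5 genes nearest to it over the 8 samples, among 9191 candidates, were *Nupr1*, *Gm15441*, *Txnip*, *Krt36* and *Chac1*, with Pearson r from 0.975 to 0.992 as a description of samples that fall into 4 groups. *Txnip*, which encodes a regulator of thioredoxin and glucose uptake, stood at 847 and 861 CPM in the WT vehicle samples, 1772 and 1755 in the *Arid1a* KO vehicle samples, 564 and 553 in the WT JSH-23 samples, and 528 and 537 in the *Arid1a* KO JSH-23 samples. *Gm15441* (chr3:96555768-96566801, minus strand) overlaps *Txnip* (chr3:96557957-96561857, plus strand) on the other strand, so both values rest on the strand-specific counting described for these data and were not treated as separate evidence.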

How the data were processed

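RNA-seq of 8 samples in 4 groups of 2 was used. The authors aligned reads to mm10 and deposited raw counts per gene (HTSeq) and TPM for each sample. The methods name TopHat2 and the submitters' processing notes HISAT2 as aligner, and counting is described as strand-specific. In the deposited tables TPM equals the count over the listed length, scaled to the same sum in each sample.

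Genes were filtered (filterByExpr) and scaled (TMM, factors 0.949 to 1.03), and all 8 samples were fitted with 1 mean per group in edgeR 4.0.16 (R 4.3.3) by the quasi-likelihood test with Benjamini-Hochberg adjustment over 13921 genes. Alternatives used DESeq2 1.42.0, limma 3.58.1 on log2(TPM + 1), fixed biological coefficients of variation of 0.1 and 0.2, other filters and scalings, a replicate block and each sample left out. Shares of all genes called are those of the main edgeR fit, and none is given beside the list counts of an alternative fit. Named genes were *Arid1a*, the members, G1 network genes changed 1.5-fold in a pairwise comparison, each other list's most abundant gene, and the 5 genes nearest to *Ccne2* by centred log2(CPM + 1). The other marker genes named lie outside this rule and were chosen after their values were seen. Promoters were chosen after their matches were seen. The members and lists were chosen with earlier results of these data known. The values of some marker genes are not reported here.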

Additional observations from a re-analysis of the deposited data

Results flagged for a closer look

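The response to JSH-23 differed between genotypes, by edgeR's interaction test over all tested genes, for 4 of the 9 tested members, against 38.4% of all genes. For *Ccne1* the JSH-23 effect in *Arid1a* KO minus that in WT was -1.79 on the log2 scale (SE 0.23, adjusted p = 1.66e-09), and the effects pointed in opposite directions, both past the threshold. For *Ccne2* it was -1.17 (SE 0.13, adjusted p = 3.68e-12), with a decrease in both genotypes that was larger in *Arid1a* KO. For *Cdk4* it was 0.24 (SE 0.035, adjusted p = 4.87e-08), with a smaller decrease in *Arid1a* KO, and limma on log2(TPM + 1) gave 0.04. For *Rb1* it was -0.23 (SE 0.083, adjusted p = 0.0223), with a smaller increase in *Arid1a* KO. The *Rb1* call was lost in DESeq2 (adjusted p = 0.136). In edgeR with a fixed biological coefficient of variation of 0.1, the calls of *Cdk4* and *Rb1* were lost (adjusted p = 0.573 and 0.607).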

How the results depend on the processing

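Of 801 member values under the alternatives, 682 kept direction and side of the threshold, 60 lost the call, 19 gained one and 40 changed sign. A fixed biological coefficient of variation, which replaces the measured 1.61% by a larger spread, left fewer calls. At 0.1 and 0.2, the members changed were 3 and 2 with vehicle between genotypes, 0 and 0 with JSH-23, and 4 and 4 for JSH-23 in *Arid1a* KO. For JSH-23 in WT 6 and 1 changed, with 1 at 1.5-fold at 0.2, and for the interaction 2 and 1, with 1 at 1.5-fold at 0.2. Genes changed in these comparisons, in the same order, numbered 2869 and 614, 1894 and 258, 6018 and 2144, 3627 and 809, and 747 and 47, and DESeq2 called 3553 in the interaction against 5346 in edgeR. At 0.1, G1 network genes higher and lower were 8 and 0, 4 and 1, 6 and 11, 1 and 5, and 0 and 3, and E2F targets 10 and 0, 18 and 0, 0 and 14, 0 and 18, and 0 and 0. The shares of all genes higher and lower at 0.1 are not given here, so these counts are not read against them. Members called at 0.2 were *Ccne1* and *Ccne2* with vehicle, *Ccnd1*, *Ccne1*, *Ccne2* and *Cdk6* for JSH-23 in *Arid1a* KO, *Ccnd1* for JSH-23 in WT and *Ccne1* for the interaction.

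Limma on log2(TPM + 1) and on log2(TPM + 0.1) called 7 and 7 members in the interaction. The share of all genes called in these fits is not given here, so the counts are not read against it. These scales shifted the median of all genes, to -0.16 and -0.19 between genotypes with JSH-23, -0.20 and -0.25 for JSH-23 in *Arid1a* KO, and -0.17 and -0.20 for the interaction, and library size alone gave -0.13 and -0.11 in the last 2. Some differences changed sign. Between genotypes with JSH-23, TPM + 1 and TPM + 0.1 gave *Ccnd3* -0.0492 and -0.0498, *Ccne2* -0.0279 and -0.0304 and *Cdk4* -0.0902 and -0.0904. For JSH-23 in *Arid1a* KO they gave *Ccnd3* -0.18 and -0.19 (both called, -0.0623 with library size and not called) and *Rb1* -0.0378 and -0.0396, and *Cdkn1b* was 0.00114 in DESeq2, 0.00245 without a filter and 0.00848 with only the groups compared. For JSH-23 in WT *Ccnd3* was -0.0329 and -0.0333 (-0.00429 with library size, -0.00986 with at least 10 counts) and *Cdkn1b* -0.00255 and -0.00256. For the interaction *Ccnd1* was -0.18 and -0.18 (adjusted p = 0.0346 and 0.0355, and -0.0853 with library size) and *Ccnd3* -0.15 and -0.15 (-0.058). The cause of each was not tested.

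Each sample was also left out in turn, which left 1 sample in its group, and the member values were fitted again. Of 360 values, 331 kept direction and side, 13 lost and 2 gained a call, and 14 changed sign. *Cdkn1b* ranged from -0.0141 to 0.0315 and *Rb1* from -0.0047 to 0.15 with vehicle between genotypes, *Cdkn1b* from -0.0206 to 0.0292 for JSH-23 in *Arid1a* KO, *Ccnd3* from -0.0509 to 0.0704 for JSH-23 in WT, and *Ccnd3* from -0.0113 to 0.11 and *Ccnd1* from -0.0291 to 0.0756 in the interaction. With JSH-23 between genotypes, *Ccnd3* was lost without WT JSH-23 replicate 1 (adjusted p = 0.0751) and *Cdk4* without WT JSH-23 replicate 2 (0.0521). The interaction call of *Rb1* was lost in 5 of the 8, those without WT vehicle replicate 1, *Arid1a* KO vehicle replicate 1, WT JSH-23 replicate 2 or either *Arid1a* KO JSH-23 sample (adjusted p from 0.0540 to 0.223), and in DESeq2 (0.136).

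The replicate numbers did not pair the samples (correlations of deviations from -0.00744 to 0.0265), and with the replicate block 5, 6, 7, 7 and 4 members changed, as without it.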

Other observations

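Genes of the later cell cycle phases, listed as 12 markers of G2 and mitosis, did not follow the G1 genes in every comparison. With vehicle, 4 were higher and 7 lower in *Arid1a* KO (25.0% and 25.5% of all genes), and with JSH-23 10 were higher and 0 lower (23.2% and 23.8%). JSH-23 raised 11 and lowered 0 in *Arid1a* KO (33.4% and 34.4%), and raised 5 and lowered 3 in WT (28.6% and 27.2%). The interaction was positive for 11 and negative for 0 (20.5% and 17.9%). Limma on log2(TPM + 1) gave 6 higher and 3 lower between genotypes with JSH-23, and 8 higher and 2 lower for JSH-23 in *Arid1a* KO. For JSH-23 in WT the counts raised and lowered were 2 and 3 in DESeq2, 3 and 3 with library size only, 3 and 4 in limma on log2(TPM + 1), and 0 and 0 with a biological coefficient of variation of 0.1. *Top2a*, which encodes topoisomerase II alpha and was the most abundant of them, stood at 723 and 739 CPM in the WT vehicle samples, 707 and 708 in the *Arid1a* KO vehicle samples, 666 and 657 in the WT JSH-23 samples, and 986 and 994 in the *Arid1a* KO JSH-23 samples. The *Arid1a* KO JSH-23 samples, where *Ccnd1*, *Ccne2* and *Cdk6* were lower than with vehicle, thus held the highest *Top2a* levels.

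Of 8 epithelial markers 5 were tested. JSH-23 raised 2 and lowered 2 in *Arid1a* KO (33.4% and 34.4% of all genes), and raised 1 and lowered 2 in WT (28.6% and 27.2%). DESeq2 gave 1 raised and 2 lowered in either genotype. With vehicle 2 were higher and 1 lower in *Arid1a* KO (25.0% and 25.5% of all genes), where *Krt19* had 1876 and 2106 counts against 691 and 624 in WT and *Krt8* 2038 and 2308 against 1006 and 869. All 5 were higher in *Arid1a* KO with JSH-23 in edgeR (23.2% of all genes), and 4 were in DESeq2 and in limma on log2(TPM + 1). In that comparison *Krt19* had 1475 and 1728 counts in *Arid1a* KO against 207 and 228 in WT. *Cldn3*, the most abundant of them, stood at 259.9 and 260.5 CPM in the WT vehicle samples, 229.96 and 238 in the *Arid1a* KO vehicle samples, 277 and 281 in the WT JSH-23 samples, and 337 and 337 in the *Arid1a* KO JSH-23 samples. Of 8 fibroblast markers 5 were tested, with 4 lower in *Arid1a* KO with JSH-23 (23.8% of all genes) in edgeR and 2 in DESeq2, and *Pdgfra*, the most abundant, had 704 to 1265 counts. Of 7 endothelial markers 2 were tested, and none had more than 43 counts in any sample, a count of *Vwf*, the most abundant. With vehicle 1 was higher in *Arid1a* KO (25.0% of all genes) in edgeR and in DESeq2. With JSH-23 1 was higher (23.2%) in edgeR and 0 in DESeq2. *Vwf* had 3 and 19 counts in the WT vehicle samples, 37 and 43 in the *Arid1a* KO vehicle samples, 7 and 4 in the WT JSH-23 samples, and 18 and 20 in the *Arid1a* KO JSH-23 samples. Of 10 leukocyte markers 5 were tested, with 1 higher and 4 lower in *Arid1a* KO with vehicle (25.0% and 25.5% of all genes) in edgeR but 1 and 1 in DESeq2, and the macrophage gene *Adgre1* had 17 and 19 counts in the WT vehicle samples, 0 and 0 in the *Arid1a* KO vehicle samples, 17 and 1 in the WT JSH-23 samples, and 0 and 2 in the *Arid1a* KO JSH-23 samples.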
